A study of Mus musculus with 5 samples.

Results

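Genes of inhibitory, GABA-releasing neurons and of the receptors that answer to GABA were examined in RNA sequencing libraries of mouse tissue after a sham operation or an ischemic stroke. The 27 genes were taken by symbol, from a list of GABA and interneuron genes, out of the 51912 rows of the authors' deposited table. They comprise 10 GABA-A receptor subunits, 2 GABA-B receptor subunits, 5 genes of GABA synthesis, transport and breakdown, 2 genes of the inhibitory postsynapse and 8 genes that mark interneurons. All 27 were found, and 26 had an adjusted p-value. The exception was Gabra6, which had almost no reads.

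The mice carried the C57BL/6 strain label in both groups, and no allele or drug other than the anaesthetics ketamine and xylazine is given for either. The stroke group (3 libraries) had the middle cerebral artery closed by a coated filament for 30 minutes, with a drop in cerebral blood flow of at least 80%. The sham group (2 libraries) carries only the label sham. The age and sex of the mice, the tissue taken and the time from surgery to RNA are not stated in what was used here, and motor function was scored after 24 hours. Nothing in the labels says whether each library came from 1 animal, so the p-values measure only the spread between these libraries.

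GABA is the main inhibitory transmitter of the adult brain. It is made from glutamate by glutamate decarboxylase, packed into vesicles, and acts on GABA-A receptors, which are chloride channels built of several kinds of subunit, and on GABA-B receptors, which act through G proteins. In the forebrain it is released by interneurons of the cortex and by the projection neurons of the striatum, the region that a blocked middle cerebral artery affects most directly. In RNA from whole tissue, fewer cells of a type and less RNA per cell cannot be told apart.

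Values per library were obtained by finding the whole numbers of reads that give the deposited mean, fold change and standard error of a gene, which succeeded for all 26 genes tested. Normalized counts below are these reads divided by the size factor of the library. The libraries held from 13249136 to 22142161 recovered reads. By size factor the sham libraries are here a deeper and a shallower one, and the stroke libraries carry numbers in falling order. None could be matched to a replicate number of the labels.

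The sham libraries differed from each other in markers of neurons, of brain regions and of glial and vascular cells. For 5 pan-neuronal markers the summed normalized count was 38902 in the deeper sham library and 30592 in the shallower one. In stroke it was 32649 to 43838. Summed over 7 markers of hypothalamic neurons, the normalized count was 2429 in the deeper sham library and 58.6 in the shallower one, against 84.9 to 1018 in the stroke libraries, with 934 of the latter from Pomc alone in stroke library 1. Hcrt, the orexin precursor, had 0 normalized counts in the shallower and 218 in the deeper sham library, with 0.864 to 1.79 in stroke. The sum of 9 thalamic markers was 13580.1 in the deeper sham library and 8294 in the shallower one, against 5861 to 7830 in stroke, and 8 of the 9 were highest in the deeper sham library. The sum of 8 markers of cortical glutamatergic neurons was 15882 in the deeper sham library and 26708 in the shallower one, against 20111 to 25087 in stroke. Rorb, a cortical layer marker within that list, had 4720 normalized counts in the shallower sham library and 858 to 1361 in the others. Among the stroke libraries, the sum of 9 markers of striatal projection neurons was 49184 in stroke library 1 and 28756 and 20956 in the others, against 28018 and 29820 in sham. The sum of 5 oligodendrocyte markers was 9102 in the shallower sham library and 18628 in the deeper one, against 11663 to 13941 in stroke. That of 8 microglia markers was 4007 and 6935, against 7005 to 8502, and that of 8 endothelial and mural markers 9453 and 5707, against 8506 to 10364. Values without 1 of the sham libraries, from limma on the recovered reads, are therefore set beside those with both. In such a fit the lone sham library was assumed to vary as the stroke libraries do. Its standard errors and p-values therefore do not measure the spread between sham libraries.

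No gene of the 26 passed the test between stroke and sham. In the authors' deposited table, 0 of 26 had an adjusted p below 0.05 by the DESeq2 Wald test, where 1.56% of all 17420 genes tested did. At an unadjusted p below 0.05 there were 3 of 26 (Gad2, Pvalb and Gabra2), a share close to the 10.5% over all genes tested. The median log2 fold change of the 26 genes was 0.14 in the authors' deposited table, against -0.02 over all genes tested, with 15 positive and 11 negative values. Standard errors ran from 0.19 to 0.42 on the log2 scale, and the 95% intervals of 20 of the 26 genes reached a 1.5-fold change in at least 1 direction.

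**Figure D1:**
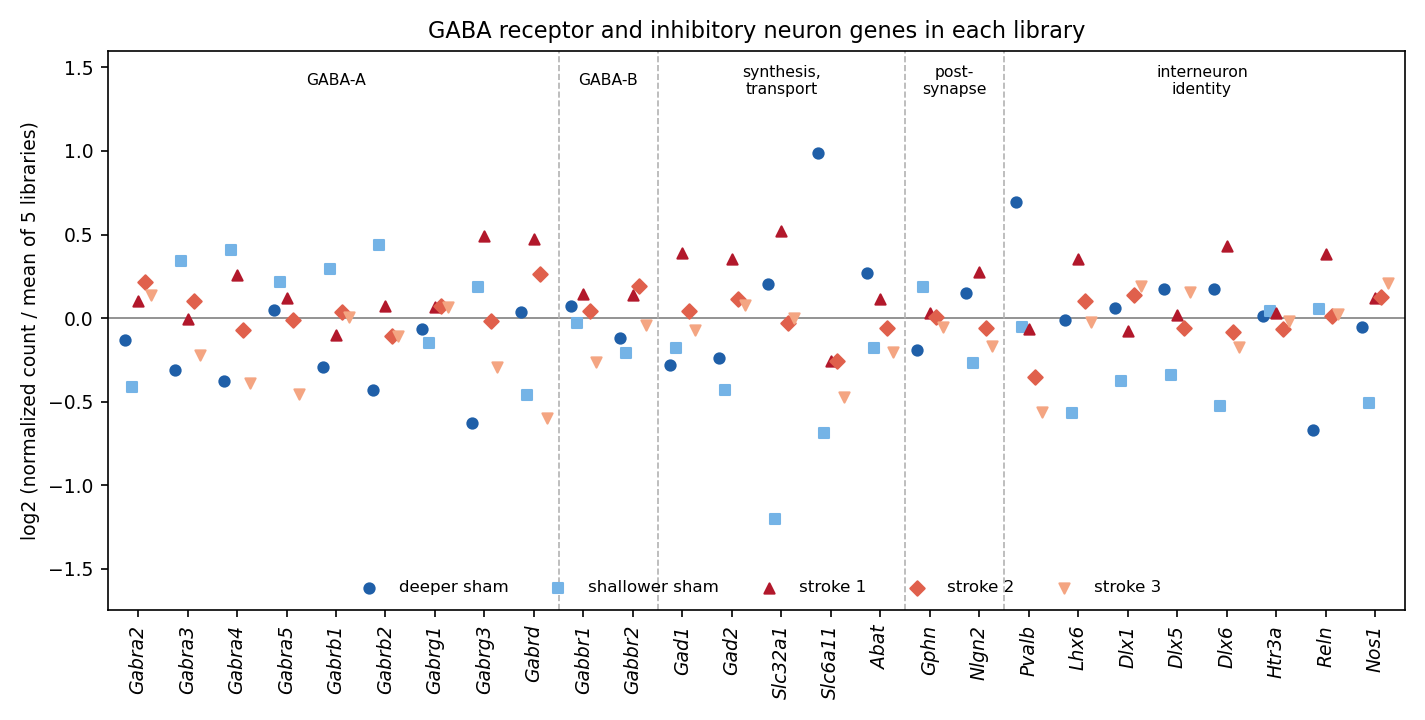
Log2 of the normalized count of each gene relative to its mean over the 5 libraries (vertical axis), for the 26 genes tested, grouped by role (horizontal axis). Blue marks are sham and red marks stroke libraries. Slc6a11 and Pvalb are highest in the deeper sham library, Slc32a1 is lowest in the shallower one, and the 3 stroke libraries lie above both sham libraries for 6 genes.

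The enzymes that make GABA were higher in every stroke library than in either sham library, without passing the test. Gad2, which encodes the decarboxylase form bound to synaptic vesicles, had normalized counts of 7382 and 6457 in the deeper and shallower sham library and of 11125, 9417 and 9216 in stroke libraries 1 to 3. The groups did not overlap, and stroke library 1 was the highest. Its log2 fold change in the authors' deposited table was 0.52 (standard error 0.20, p = 0.00964, adjusted p = 0.219), with a 95% interval from 1.09-fold to 1.88-fold. Gad1, which encodes the form found throughout the cell, had 7664 and 8224 in sham and 12219, 9609 and 8866 in stroke. Its groups did not overlap either, but the gap between stroke library 3 and the shallower sham library was small. The log2 fold change of Gad1 in the authors' deposited table was 0.37 (standard error 0.22, adjusted p = 0.63).

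Both Gad genes and Slc32a1 were highest in stroke library 1, the library with the largest sum of striatal markers, whose neurons use GABA. Stroke library 1 was the highest library for 10 of the 26 genes. It also had the largest sum of 5 pan-neuronal markers, 43838 against 30592 to 40868 in the others. The part of striatal or general neuronal content in these values was not tested. Without stroke library 1, limma on recovered reads gave log2 fold changes of 0.43 (standard error 0.21) for Gad2 and 0.22 (standard error 0.21) for Gad1, against 0.52 and 0.35 with all 5 libraries.

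The vesicular GABA transporter and the GABA transporter of astrocytes depended on which sham library stood for the group. Slc32a1, which loads GABA into vesicles, had 3263 normalized counts in the deeper sham library and 1229 in the shallower one, against 4063, 2777 and 2834 in stroke. The shallower sham library was the lowest of the 5, and the deeper one lay inside the range of stroke. In the authors' deposited table its log2 fold change was 0.52 (standard error 0.40, adjusted p = 0.781). In limma on the recovered reads, it was 1.37 without the deeper and -0.04 without the shallower sham library. Slc6a11, the GABA transporter GAT-3 that is best known in astrocytes and is rich in thalamus and hypothalamus, had 7701 in the deeper sham library and 2403.5 in the shallower one. The stroke libraries had 3242, 3239.9 and 2792 and lay between the sham libraries. Its log2 fold change in the authors' deposited table was -0.71 (standard error 0.42, adjusted p = 0.611), the lowest of the 26 genes. By limma its log2 fold change turned to 0.36 without the deeper sham library and was -1.32 without the shallower one.

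The excess of Slc6a11 in the deeper sham library ran beside that of thalamic and hypothalamic markers there, and its part in the result was not tested. The sum of 6 astrocyte markers was 26426 and 22059 in the sham libraries and 20075 to 25947 in stroke. Of these 6 markers, 5 were highest in the deeper sham library, as Slc6a11 was. The part of astrocyte content was not tested. Abat, the GABA transaminase that breaks GABA down, had 10639 and 7783 in sham and 9572, 8473 and 7684 in stroke, overlapping groups, and -0.10 as its log2 fold change (standard error 0.23, adjusted p = 0.964) in the authors' deposited table.

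**Figure D2:**
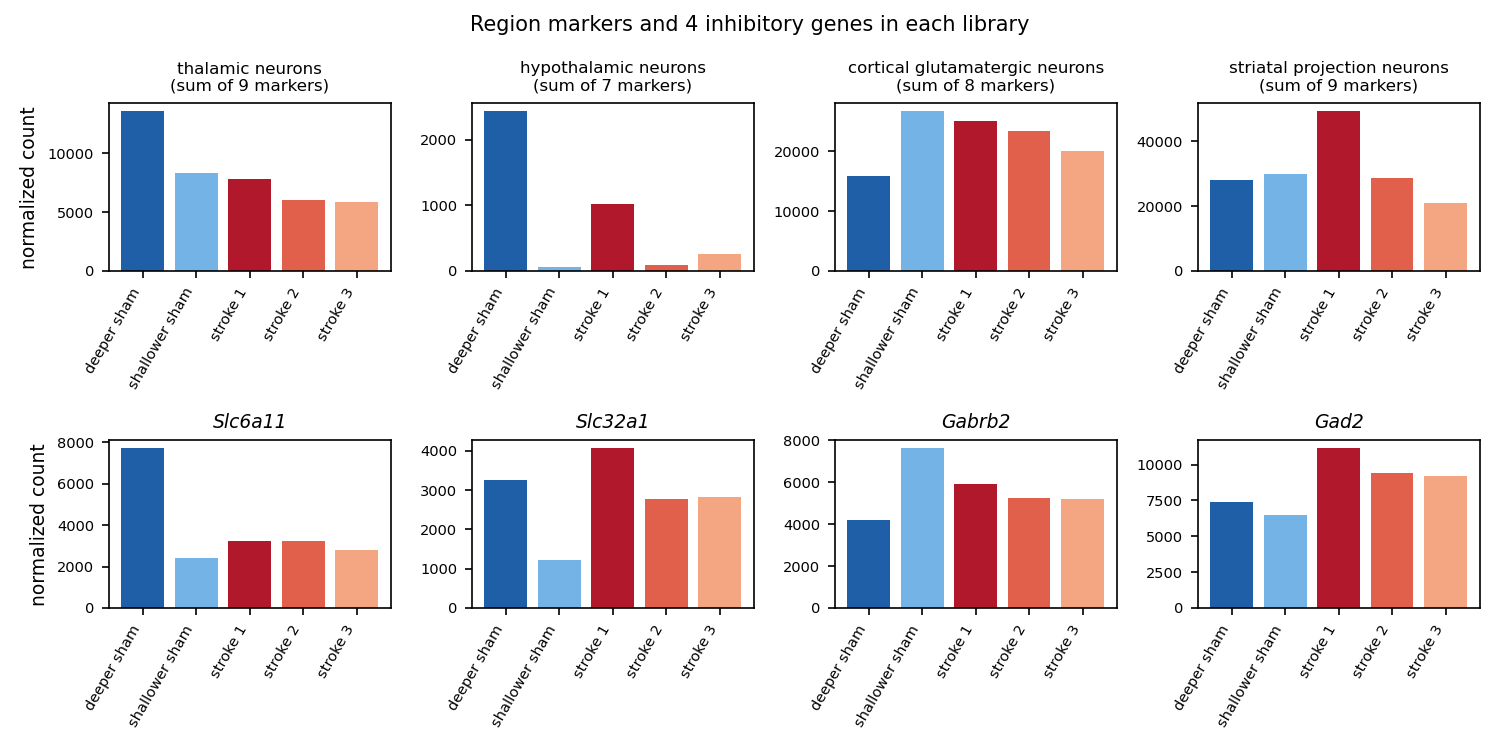
Summed normalized counts of region markers (upper row) and normalized counts of 4 genes (lower row) in each library, with 1 bar per library. The thalamic sum and Slc6a11 (7701) are highest in the deeper sham library, the cortical sum and Gabrb2 (7620.5) in the shallower one, and the striatal sum, Slc32a1 and Gad2 in stroke library 1.

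The upstream sequences of the synthesis genes and of Gabra2 are shown because these had the largest positive differences among genes whose groups did not overlap, along with Nos1. RefSeq sequences on GRCm38.p6 were matched by symbol for 22 of the 27 genes, which have 29 promoter windows in all. Of the 250 bases before each RefSeq start, the stretch up to the first GENCODE exon of the gene that enters it is given, 163 bases for Gad1 (chr2:70561879-70562041, plus strand), 128 for Gad2 (chr2:22622077-22622204, plus strand) and 250 for Gabra2 (chr5:71095850-71096099, minus strand). Capitals mark a match to a searched motif.

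Gad1: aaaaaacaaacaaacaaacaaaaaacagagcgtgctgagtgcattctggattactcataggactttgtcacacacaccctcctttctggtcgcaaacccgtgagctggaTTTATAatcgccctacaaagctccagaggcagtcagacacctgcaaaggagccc

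Gad2: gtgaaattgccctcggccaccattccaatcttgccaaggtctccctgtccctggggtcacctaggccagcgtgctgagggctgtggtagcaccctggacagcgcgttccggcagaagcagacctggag

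Gabra2: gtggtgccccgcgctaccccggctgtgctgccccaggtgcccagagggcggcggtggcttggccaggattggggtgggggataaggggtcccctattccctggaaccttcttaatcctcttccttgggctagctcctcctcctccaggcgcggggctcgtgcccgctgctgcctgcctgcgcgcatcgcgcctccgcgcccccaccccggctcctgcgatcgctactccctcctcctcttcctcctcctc

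Searched on both strands of the 250 bases were TATAAA (the TATA box), TAATTA (a core bound by homeodomain proteins such as those of the Dlx genes), TGACGTCA (the cAMP response element) and TGACTCA (the AP-1 site). Each gene named below held 1 of these motifs, so no match overlaps another. The capitals in Gad1 are the TATA box letters read on the other strand, and TATAAA was also found for Gabra3 and Gabrb2, in 4 of the 29 windows in all, against 12.4% of 32851 promoter windows of the same length. TAATTA was found in 1 of the 29, for Gabrg1 (4.84% of all windows), TGACTCA in 1, for Lhx6 (4.46%), and TGACGTCA in 0 (1.55%). These matches describe letters in a window and not binding.

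Among GABA-A receptor subunits, Gabra2 was higher in every stroke library than in sham, and no subunit passed the test. Gabra2, an alpha subunit of synaptic receptors (chromosome 5, 70957597 to 71095849, minus strand, GRCm38), had normalized counts of 3587 and 2943 in sham and 4217, 4555 and 4310 in stroke. The stroke libraries lay close together and above both sham libraries. Its log2 fold change in the authors' deposited table was 0.42 (standard error 0.20, p = 0.0332, adjusted p = 0.399), or 1.34-fold. In limma the log2 fold change of Gabra2 was 0.57 without the deeper sham library and 0.28 without the shallower one. Gabrg1, a gamma subunit gene in the same cluster (70751047 to 70842617, minus strand), had 866 and 819 in sham and 949, 954 and 948 in stroke. Its groups did not overlap, with a log2 fold change of only 0.17 (standard error 0.19, adjusted p = 0.902) in the authors' deposited table.

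Further genes of that cluster lay in another order. Gabrb1, a beta subunit gene (71658113 to 72149037, plus strand), had 6005 and 9018.5 in sham and 6860.0, 7553 and 7406 in stroke. Gabra4, an alpha subunit gene known from striatum and thalamus (71569749 to 71658308, minus strand), had 2895 and 4991 in sham and 4497, 3580.3 and 2871 in stroke. Both were highest in the shallower sham library, and the stroke libraries lay within or near the sham range. Their log2 fold changes in the authors' deposited table were -0.05 (standard error 0.24) for Gabrb1 and -0.11 (standard error 0.32) for Gabra4. Exons of these 2 genes overlap on opposite strands where they begin, and whether strand was used in counting is not given, so reads from that stretch may count for either.

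Gabrb2, the most common beta subunit of cortex, and Gabra3 followed the same order among sham libraries. Gabrb2 had 4179 and 7620.5 in sham and 5936, 5232.5 and 5223 in stroke. Gabra3, an alpha subunit gene on the X chromosome, had 3449.5 and 5415 in sham and 4252, 4585 and 3670.2 in stroke. All 3 stroke libraries lay between the sham libraries for both genes. Their log2 fold changes in the authors' deposited table were -0.11 (standard error 0.29) and -0.09 (standard error 0.26). In limma the sign of Gabra3, Gabra4, Gabrb1 and Gabrb2 was negative without the deeper and positive without the shallower sham library, for Gabrb2 at -0.48 (standard error 0.16, adjusted p = 0.0704) and 0.38 (standard error 0.16, adjusted p = 0.209). These genes were higher in the sham library with the larger sum of cortical markers, and the part of that difference was not tested.

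Gabrd, Gabrg3 and Gabra5 did not pass the test either. Gabrd, whose product forms receptors outside the synapse, had 1014 and 719 in sham and 1371, 1186 and 654 in stroke, with stroke library 3 the lowest of all. Gabrg3 had 1168.5 and 2057 in sham and 2540.2, 1785 and 1476 in stroke. Gabra5, an alpha subunit best known in hippocampus, had 1957 and 2195 in sham and 2054, 1873 and 1380.5 in stroke. The groups overlapped in all 3 genes, and their log2 fold changes in the authors' deposited table were 0.30 (standard error 0.36), 0.26 (standard error 0.34) and -0.23 (standard error 0.25). Without the deeper sham library limma gave 0.50, -0.13 and -0.33, and without the shallower one 0.01, 0.69 and -0.17. Gabra6, a subunit of cerebellar granule cells, had 1 read in the deeper sham library, 1 in stroke library 3 and 0 in the others, too few for a fold change. Of the 9 subunits tested, 0 were called, 2 had non-overlapping groups, and the median log2 fold change was -0.05.

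GABA-B receptors require both of their subunits at the cell surface. Gabbr1, whose product binds GABA, had 22651 and 21026 in sham and 23806, 22125 and 17917 in stroke, an overlap with stroke libraries at both ends. Gabbr2, whose product couples to G proteins, had 11842 and 11104.5 in sham and 14145, 14675 and 12488 in stroke, with every stroke library above both sham libraries. Their log2 fold changes in the authors' deposited table were -0.04 (standard error 0.21, adjusted p = 0.99) and 0.26 (standard error 0.19, adjusted p = 0.735).

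Levels were compared between receptor genes as normalized counts per kilobase of annotated exon, all exons of a gene counted once. Gabbr1 was highest at 2770 on average (2308 to 3066 over the 5 libraries), followed by Gabbr2 at 1922 (1661 to 2195), and these ranges did not overlap each other or those of the 9 GABA-A subunits ranked. Of these 9, Gabra3 was highest at 1089 (879 to 1380), then Gabrb2 at 886.5, Gabra5 at 636, Gabra4 at 619, Gabrb1 at 532.5, Gabra2 at 513 and Gabrd at 344. Each of these overlapped its neighbour in range. A gap followed before Gabrg3 at 151 (97.9 to 213) and Gabrg1 at 115 (104 to 121). Exon length includes untranslated parts that may not be used in this tissue, so neighbours in this order could change places with other gene models.

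**Figure D3:**
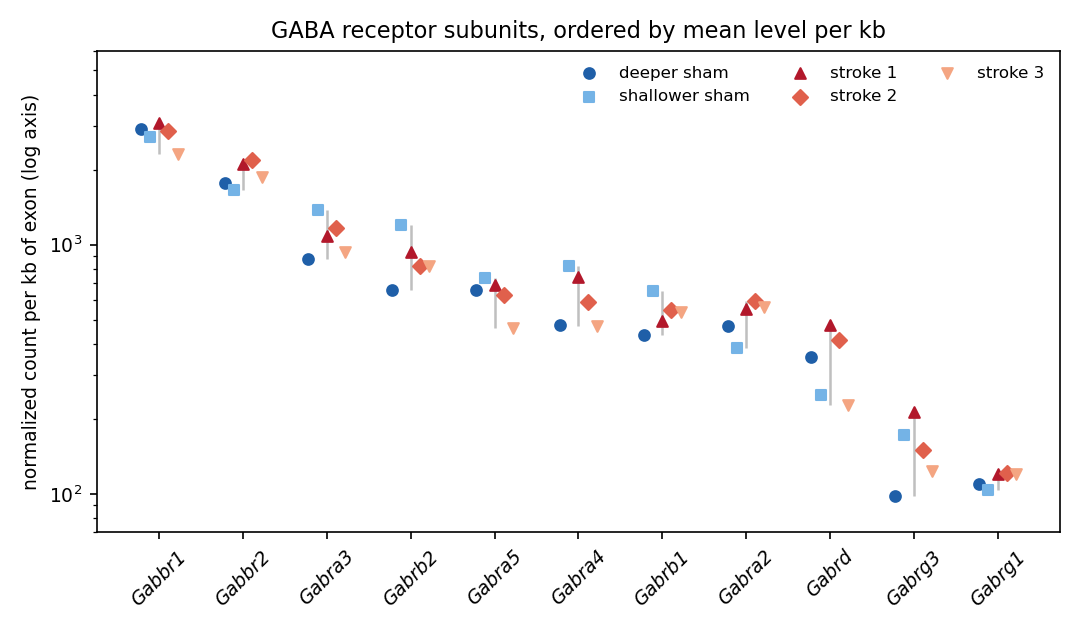
Normalized count per kilobase of exon (vertical log axis) of the 9 GABA-A and 2 GABA-B receptor subunits ranked, in each library, ordered by the mean. Grey lines span the 5 libraries. Of these 11 genes the GABA-B subunits are highest, at 2770 for Gabbr1, and Gabrg1 is lowest, at 115.

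The scaffold and adhesion genes of the inhibitory postsynapse did not pass the test, and their groups overlapped. Gphn, which encodes gephyrin, the scaffold that holds GABA-A receptors at the synapse, had 1686 and 2187 in sham and 1965, 1936 and 1854 in stroke, all between the sham libraries. Nlgn2, the neuroligin of inhibitory synapses, had 9852 and 7363 in sham and 10774.5, 8525 and 7901 in stroke. The log2 fold changes in the authors' deposited table were -0.01 (95% interval -0.43 to 0.40) for Gphn and 0.07 (95% interval -0.41 to 0.56) for Nlgn2.

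Genes that mark interneurons had values in both directions, and 0 of 8 passed the test. Pvalb, the calcium-binding parvalbumin of fast-spiking interneurons, had normalized counts of 979 and 581.8 in sham and 577, 472 and 409 in stroke. Every stroke library was below both sham libraries, though stroke library 1 differed from the shallower sham library by less than 5 normalized counts. Its log2 fold change in the authors' deposited table was -0.68 (standard error 0.32, p = 0.0302, adjusted p = 0.38), or 0.623-fold. Without the deeper sham library it was -0.27 (standard error 0.22, adjusted p = 0.412 by limma), and without the shallower one -1.02 (standard error 0.22, adjusted p = 0.051 by limma). Parvalbumin is also made by neurons outside the cortex, thalamic ones among them, and the part of the region difference in the deeper sham library was not tested.

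Lhx6 and the Dlx genes encode transcription factors that set up interneurons in the embryonic forebrain. Lhx6, which interneurons with parvalbumin or somatostatin keep in the adult, had 496 and 338 in sham and 640, 538 and 492 in stroke. Its lowest stroke library was just under the deeper sham library, and the log2 fold change in the authors' deposited table was 0.41 (standard error 0.28, adjusted p = 0.72). Lhx6 thus had a positive and Pvalb a negative fold change in the same libraries, and neither passed the test. Dlx1 had 584 and 432 in sham and 531, 617 and 640.5 in stroke. Dlx5 and Dlx6, neighbours on chromosome 6 (6877805 to 6882085 and 6863334 to 6868568), had 183 and 128, and 352.5 and 217, in sham. In stroke they had 164, 156 and 181, and 422, 294 and 277. The groups of all 3 Dlx genes overlapped, each was lowest in the shallower sham library, and their log2 fold changes in the authors' deposited table were 0.23 (standard error 0.25), 0.10 (standard error 0.32) and 0.22 (standard error 0.35). Without the deeper sham library limma gave Dlx1, Dlx5 and Dlx6 values of 0.46, 0.38 and 0.58, and without the shallower one 0.02, -0.14 and -0.12. Dlx1as, which lies antisense to Dlx1, had a mean of 65.1 in the authors' deposited table.

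Markers of further interneuron classes did not pass the test either. Htr3a, the serotonin receptor channel of a class of cortical interneurons, had 143 and 146 in sham and 144, 135 and 139.7 in stroke, the narrowest sham ratio of the 26 genes at 1.02. Nos1, the neuronal nitric oxide synthase of a sparse interneuron class, had 2163.5 and 1580.5 in sham and 2444, 2456 and 2601 in stroke. The groups did not overlap, and the log2 fold change in the authors' deposited table was 0.42 (standard error 0.22, p = 0.0622, adjusted p = 0.521). Reln, which encodes the secreted protein reelin, had 1917 and 3164 in sham and 3970, 3075.5 and 3102 in stroke, and 0.41 as its log2 fold change (standard error 0.29, adjusted p = 0.725) in the authors' deposited table. Reln was lowest in the deeper sham library, and stroke libraries 2 and 3 lay beside the shallower sham library. By limma its log2 fold change was 0.09 (standard error 0.19, adjusted p = 0.774) without the deeper and 0.81 (standard error 0.19, adjusted p = 0.0673) without the shallower sham library.

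In all, 6 of the 26 genes (Gabra2, Gabrg1, Gabbr2, Gad1, Gad2 and Nos1) had all 3 stroke libraries above both sham libraries, where 13.1% of 17100 genes with recovered reads did. Only Pvalb had all 3 below, where 11.2% of those genes did. The 2 sham libraries were further apart on the log2 scale than the deposited fold change for 19 of the 26 genes, near the 73.9% over all genes with recovered reads. The median ratio of the higher to the lower sham library was 1.39, and that of the highest to the lowest stroke library 1.25, against 1.47 and 1.28 over all these genes. For 13 of the 26 genes the sign of the fold change in limma differed between leaving out the deeper and leaving out the shallower sham library, near the 52.2% over all genes.

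Without the deeper sham library, limma called 5 of the 26 genes higher, where 9.05% of 17100 genes were called higher. These were Slc32a1, Nos1 (0.66, standard error 0.14, adjusted p = 0.0214), Gabra2, Gad2 (0.61, standard error 0.17, adjusted p = 0.0456) and Lhx6 (0.71, standard error 0.20, adjusted p = 0.0482), and 0 were called lower, where 9.13% of all genes were. Without the shallower sham library, 0 were called higher (2.12% of all genes) and only Slc6a11 lower (1.27% of all genes). Nos1 then had 0.21 (standard error 0.14, adjusted p = 0.428), Lhx6 0.16 (standard error 0.20, adjusted p = 0.678) and Gad2 0.42 (standard error 0.17, adjusted p = 0.21) by limma. In these fits the lone sham library was assumed to vary as the stroke libraries do, and the shallower sham library was the lowest of the 5 libraries for each of the 5 genes called higher.

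**Figure D4:**
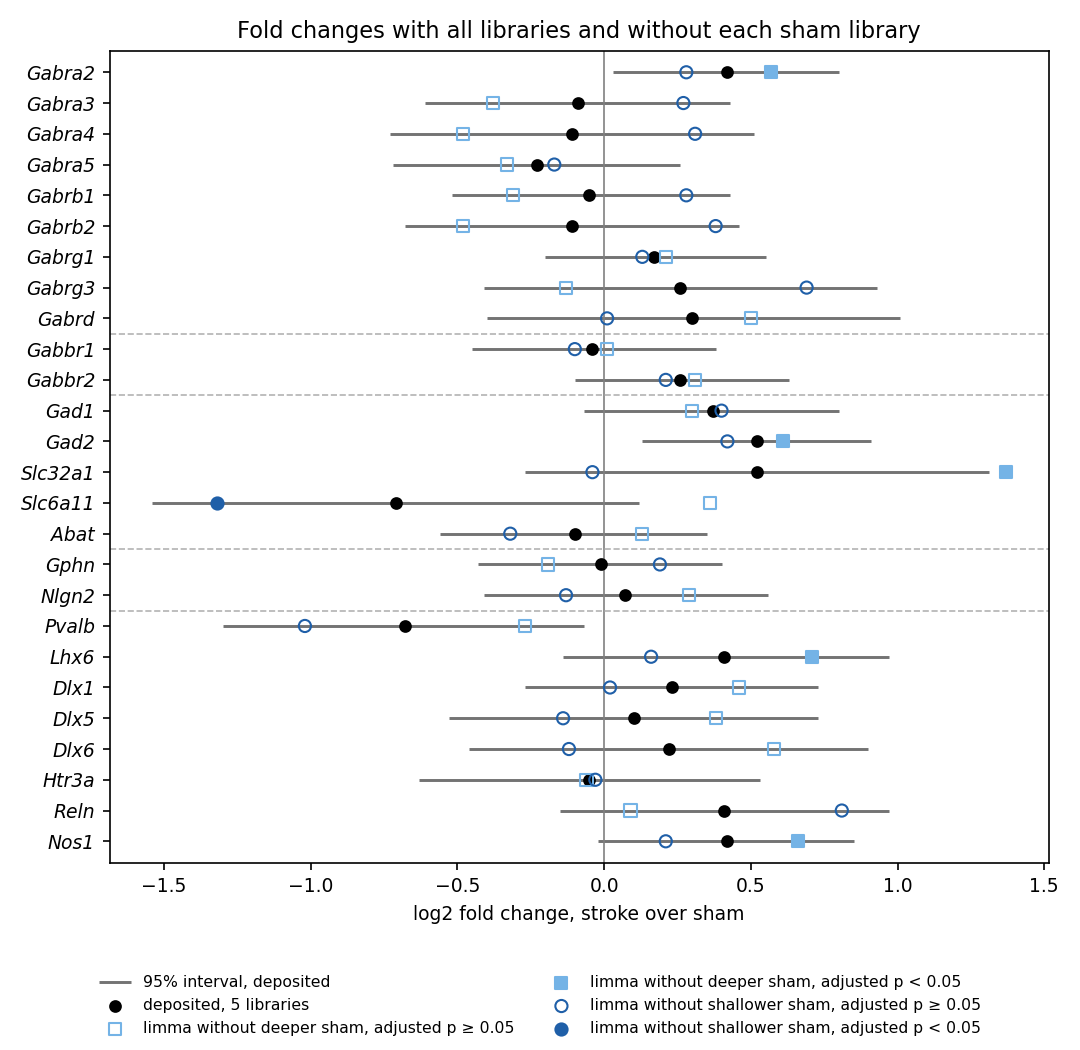
Stroke over sham as a log2 fold change (horizontal axis) for each gene. Black points and grey lines are the authors' values with their 95% intervals, and squares and open or filled blue circles are limma without the deeper and without the shallower sham library, filled where the adjusted p was below 0.05. Slc6a11 runs from -1.32 to 0.36 and Slc32a1 from -0.04 to 1.37 between these fits. Gabra2, Gabrg1, Gabrd, Gabbr2, Gad1, Gad2, Lhx6, Dlx1, Reln and Nos1 have every point to the right of 0. Of these, only Gabra2 and Gad2 have an interval that leaves out 0. Gabra5, Pvalb and Htr3a have every point to the left.

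Other genes of the GABA pathway gave no call in the deposited test, and some were called when a sham library was left out. In the authors' deposited table, 0 of 6 further GABA-A and GABA-rho subunits tested, 0 of 10 further transport and metabolism genes, 0 of 24 receptor partners and inhibitory synapse genes, 0 of 7 glycine receptors and chloride transporters and 0 of 30 further interneuron genes passed in either direction. Their median log2 fold changes in the authors' deposited table were -0.48, -0.03, 0.03, 0.00 and 0.22. At an unadjusted p below 0.05 there were 1 of 6, 0 of 10, 4 of 24, 0 of 7 and 4 of 30 genes, where 10.5% of all genes tested were.

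In limma without 1 of the sham libraries, some genes of these lists were called. So were many genes outside them, at the shares of all genes given above. The lists held 5, 9, 21, 6 and 30 genes with recovered reads, in the order above. The lone sham library was again assumed to vary as the stroke libraries do. The names below describe these fits and are not a result about the lists. The interneuron genes called without the deeper sham library (Crhbp, Dlx2, Elfn1, Lhx8, Nkx2-1, Npas1, Sp9, Sst and Tac1) were all higher in stroke. Without the shallower one, Calb2 and Nr2f2 were called lower. Gabrq, Glra1 and Slc6a9, the glycine transporter GlyT1, were called in both fits, higher without the deeper and lower without the shallower sham library. Iqsec3 was called higher and Nlgn3 and Slitrk3 lower without the deeper sham library, and Gabarapl2 higher without the shallower one. These genes were named after their values were seen, except Tac1, Nr2f2, Gabrq, Glra1 and Slitrk3.

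Tac1, the tachykinin precursor that striatal neurons and some interneurons make, had the smallest p-value of those lists. Its normalized counts were 876 and 590.0 in sham and 2109, 1596 and 987 in stroke, all stroke libraries above sham. The log2 fold change in the authors' deposited table was 1.09 (standard error 0.36, p = 0.00248, adjusted p = 0.105). Slitrk3, an adhesion protein of inhibitory synapses, had 1910.5 and 2974 in sham and 1248, 1289.8 and 1663 in stroke, all below sham, and -0.80 as its log2 fold change (standard error 0.28, p = 0.0042, adjusted p = 0.142) in the authors' deposited table. Ubqln1, a ubiquitin-like protein that binds GABA-A subunits, had 5110.3 and 4989.5 in sham and 7232.5, 6304 and 7646 in stroke. Its log2 fold change in the authors' deposited table was 0.48 (standard error 0.19, adjusted p = 0.234).

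Nr2f2, a transcription factor of interneurons from the caudal ganglionic eminence that is also found outside the cortex, had 1037 and 437 in sham and 341, 400.5 and 438 in stroke, high in the deeper sham library only. Gabrr2, a GABA-rho subunit, had 77.3 and 76.3 in sham and 36.3, 43.3 and 41.2 in stroke, and -0.93 as its log2 fold change (standard error 0.43, adjusted p = 0.379) in the authors' deposited table. Gabrq and Glra1, a GABA-A theta subunit and a glycine receptor subunit known from hypothalamus and brainstem, had 272 and 179 in the deeper sham library, against 13.6 and 8.18 in the shallower one. In stroke they had 46.0 to 77.0 and 26.9 to 36.3. Of the remaining genes with the lowest p-values in their lists, Slc6a13, Glul and Glra3 had log2 fold changes of -0.49 (standard error 0.41), -0.23 (standard error 0.23) and -0.33 (standard error 0.23) in the authors' deposited table.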

How the data were processed

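RNA sequencing of 5 libraries (2 sham, 3 stroke) was used as 1 deposited table. Libraries came from a KAPA stranded mRNA-seq kit on TRIzol and RNeasy extracts, per the labels' protocols. Tools named in the submitters' processing notes are STAR 2.5.2b, featureCounts 1.5.1, FastQC and DESeq2 1.14.1, with the build GRCm38. No source used here gives the annotation release or strand setting. The authors gave each gene a signal (mean normalized count), a fold change on the log2 scale and its standard error, a Wald score, a p-value and an adjusted p-value, per the file headers, and these were used as deposited. The table has no columns of single samples beyond these.

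The 27 genes, the further lists and the tests were chosen with earlier results of these data known. All 27 genes are named, and of each further list the 2 genes with the lowest p and any called. Tac1 and others are named under that rule, while Rorb, Pomc, Hcrt and Dlx1as were chosen after their values were seen. Of the marker lists, Lhx9, Tcf7l2, Otp and Oxt were called lower and Acta2 higher. Those called lower were each highest in the deeper sham library. Lhx9 had 291 normalized counts there, 4.09 in the shallower sham library and 1.79 to 5.19 in stroke. Tcf7l2 had 1238, 252 and 173 to 193.5.

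Genes with 1 read in 1 library gave 5 values of the mean, 2 with a negative and 3 with a positive fold change, which set the size factors (0.734 to 1.16) and the direction, stroke over sham. Whole reads were then sought that alone give the deposited mean, fold change (to 7e-09), standard error and statistic under the deposited model, in Python 3.11.15 with numba 0.67.0. This succeeded for 17100 of 17420 genes, 269 having not been tried for their size. Of 500 genes shifted on purpose 0 were accepted, against 500 of 500 unshifted. Leave-one-out and other fits used limma 3.58.1 (R 4.3.3) on log2 of normalized reads plus 1, with Benjamini-Hochberg adjustment over all 17100 genes. Both steps were also tested on simulated data. Intervals are the deposited fold change plus or minus 1.96 standard errors. Positions and exon lengths are from GENCODE vM21 on GRCm38, the build of the notes.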

Additional observations from a re-analysis of the deposited data

How the results depend on the processing

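In the alternatives run over the 26 genes, the count of called genes was 0 when adjusting over every gene with a p-value, with a mean of at least 5 CPM, against a fold of 1.5, after recentring on the median, and in limma with a pseudocount of 1 or 0.5, voom, or scaling by total reads. The last 2 were chosen after seeing the data. The limma and voom fits called at most 5 of 17100 genes, so their 0 says little about the 26. At an unadjusted p below 0.05 there were 3, 3, 0 and 4 of 26 in the first 4 settings and 2 of 26 in each of the others. All genes gave 2016 of 31651, 960 of 11519, 697 of 17420 and 1872 of 17420 in the first 4 settings. In the others they gave 1107 to 1226 of 17100. Over all genes the count called at an adjusted p below 0.05 was 272 as deposited (135 higher, 137 lower). It was 187 (99 and 88) over every gene with a p-value and 142 (109 and 33) at 5 CPM. Against a fold of 1.5 it was 45 (23 and 22), and after recentring 295 (158 and 137). By limma it was 5 (4 and 1) with either pseudocount and 4 (3 and 1) scaled by totals, and by voom 2 (1 and 1). The median log2 fold change of all genes was 0.00 in limma and -0.06 when scaled by totals. Leaving out 1 library at a time gave 0 to 5 called genes of the 26 and 1 to 3108 of all genes, 1 to 1547 higher and 0 to 1561 lower. Of the 5 further lists, the counts ran from 0 to 1, 0 to 0, 0 to 3, 0 to 2 and 0 to 9. The highest counts came without the deeper sham library, and 580 genes were called without the shallower one.

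Recentring turned Gphn to 0.012. Over the fits that leave out 1 library, directions turned for Gabra3 (-0.38 to 0.27), Gabra4 (-0.48 to 0.31), Gabrb1 (-0.31 to 0.28), Gabrb2 (-0.48 to 0.38), Gabrg3 (-0.13 to 0.69), Gabbr1 (-0.13 to 0.073), Slc32a1 (-0.04 to 1.37), Slc6a11 (-1.32 to 0.36), Abat (-0.32 to 0.13), Gphn (-0.19 to 0.19), Nlgn2 (-0.13 to 0.29), Dlx5 (-0.14 to 0.38) and Dlx6 (-0.12 to 0.58). The cause was not tested. The other 13 genes kept their direction there. A tolerance 10 times smaller gave the same reads for 26 of 26 genes.

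No paired analysis was possible because the libraries could not be tied to replicate numbers. The planned edgeR fit on recovered reads was not run, and limma and voom were used on those reads. The table gives no counts per library, and the reads were rebuilt from the authors' fit. Each of the 26 genes had at least 94 reads in every library. What limits the precision was not tested.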
